A study of Catharanthus roseus with 15 samples.

Results

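The genes examined here are GO (CRO_002621), CS (CRO_021730) and TS (CRO_011212), 3 of the 33829 genes in a count table of *Catharanthus roseus* leaf RNA. They were taken by their identifiers and followed over all 15 libraries. In the monoterpenoid indole alkaloid (MIA) pathway, GO (geissoschizine oxidase), a cytochrome P450, oxidises geissoschizine at the entry to a route that later steps carry to the unstable intermediate dehydrosecodine. CS (catharanthine synthase, also called HL1) and TS (tabersonine synthase, also called HL2) are related hydrolase-like enzymes that close the rings of that intermediate in different ways. The product of CS is catharanthine and the product of TS is tabersonine, from which vindoline is made. GO therefore lies upstream of both products, and catharanthine and vindoline are the parts that are joined into the anticancer bisindoles of this plant.

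Leaves of the cultivar Vitae Rose Red were compared in 5 groups of 3 libraries each. The control group was sampled at 0 h. The other groups had been sprayed with 100 µM ethephon (ETH), which releases ethylene in the plant, or with 100 µM methyl jasmonate (MJ), and were sampled 3 h or 24 h later. The labels give the seedlings an age of 2 weeks and the methods of the study give another age. Libraries of leaves sprayed with water were not analysed here, so treatment, spraying and time of sampling cannot be told apart in a comparison with 0 h, and all 4 such comparisons share the same 3 control libraries. The labels do not say how many plants each library pools or whether replicates came from separate plants, so p-values measure the spread between these libraries.

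Total counts were 23710688 to 31168281 per library (median 26443250), and 18008 genes passed the filter on low counts, the 3 members among them. PSAF, a photosystem I subunit used as the leaf marker, was present in all groups, with 2726 to 5774 CPM (counts scaled to a common library size and composition) at 0 h, 1805 to 2546 CPM at ETH 3 h and 1144 to 2230 CPM at MJ 3 h. Both 3 h groups lay below the controls without overlap, as did 16.9% of genes at ETH 3 h and 18.5% at MJ 3 h. PSAF was at 2077 to 2835 CPM at ETH 24 h and 2372 to 4940 CPM at MJ 24 h, both overlapping the controls. In edgeR 11.3% of all genes were called lower at MJ 3 h and 7.14% at ETH 3 h. PSAF was called lower at MJ 3 h by edgeR, DESeq2 and limma voom (log2 -1.13), and at ETH 3 h (log2 -0.93) by DESeq2 (adjusted p 0.0364) and limma voom (0.0115) but not by edgeR (0.0977). LRL3, a root hair factor, was at 1.95 to 6.24 CPM over the 15 libraries. For 7 rows of markers of young or dividing tissue (ANT, AIL6, SPCH, ORC1B, DEL3), 0 of which were at 0 throughout a group, the summed level was 10.6 to 12.8 CPM at 0 h, 6.63 to 77.8 at ETH 3 h, 9.37 to 17.2 at ETH 24 h, 6.40 to 117 at MJ 3 h and 5.99 to 9.06 at MJ 24 h. Replicate 1 had the highest sum in all 5 groups, and the 2 values that stand apart belonged to replicate 1 of ETH 3 h and replicate 1 of MJ 3 h, and results at 3 h are therefore also given without these libraries. The part of PSAF and of these markers in the results that follow was not tested otherwise. In RNA of whole leaves, fewer cells that express a gene and less of its RNA per cell cannot be told apart.

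The sequences of the members that the sources used here hold are the primers with which the study measured HL1 (CS) and HL2 (TS) by quantitative RT-PCR. They are shown because they state which transcripts the names CS and TS refer to. The primers are written 5′ to 3′, in lower case since no base is singled out.
HL1-F: tggggctggcttttgtctagaatc
HL1-R: taagctgcgggtaaaaggtgctct
HL2-F: tgctcctggtggaaatgataaccc
HL2-R: aatcagcaacctcgagcaacca
The CS primers are both 24 nt long, and those for TS are 24 and 22 nt. The gene models behind the identifiers were not used here, so chromosome, exons and length are not given, and the match of each primer to its row was not checked. The name of the CS row is that of the study. With its low counts, whether this row is the gene that supplies most catharanthine synthase in the leaf could not be checked here, and every CS value is a value of this row. Without lengths, levels are compared between groups for a gene and never between genes. A table of the study pairs the GO row with 2 consecutively numbered genes of a newer genome. Reads of near-identical copies may therefore be counted in the GO row. The same search found no pairing for the CS and TS rows.

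The depth behind the members was uneven. TS had 8730 to 65356 counts per library, GO 123 to 730, and CS 2 to 38. Over all 15 libraries CS gathered 250 counts, GO 6259 and TS 460763. For CS, counting error alone was large: the exact 95% Poisson interval was 0.24 to 7.22 around the lowest count of 2 and 26.9 to 52.2 around the highest count of 38. Such intervals cover counting error only.

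GO, the upstream oxidase, was highest after ETH at both times. Its levels were 12.6, 13.4 and 7.64 CPM in the control replicates 1, 2 and 3. They were 20.6, 15.6 and 24.4 CPM at ETH 3 h, and 21.4, 21.4 and 20.9 CPM at ETH 24 h. All 6 ETH libraries thus stood above all 3 controls, and the replicates of ETH 24 h lay closest together. Against 0 h, 17.8% of genes had such a gap at ETH 3 h and 19% at ETH 24 h. The share with a gap at both times was not counted. At MJ 3 h GO measured 16, 15.1 and 12.6 CPM, and at MJ 24 h 4.64, 10.3 and 13.3 CPM. Both MJ groups overlapped the controls, and MJ 3 h also reached into the range of ETH 3 h. By mean, the order was ETH 24 h (21.2 ± 0.31 CPM, SD, n = 3), ETH 3 h (20.2 ± 4.4), MJ 3 h (14.6 ± 1.7), 0 h (11.2 ± 3.1) and MJ 24 h (9.39 ± 4.4), and no neighbours in this order differed in edgeR's quasi-likelihood test (adjusted p from 0.408 to 0.918).

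CS, the row the study names catharanthine synthase, had the lowest counts and the widest relative spread, with 21.0-fold between its highest and lowest library against 5.25-fold for GO and 4.96-fold for TS. Its controls held 8, 12 and 10 counts, or 0.32, 0.43 and 0.45 CPM. At ETH 3 h it held 26, 38 and 34 counts (0.73, 1.49 and 1.36 CPM), and at ETH 24 h 25, 27 and 16 counts (0.94, 0.91 and 0.65 CPM). The lowest ETH library, 0.65 CPM, was above the highest of the 9 other libraries, 0.48 CPM. At MJ 3 h the counts were 13, 2 and 10 (0.48, 0.071 and 0.39 CPM), and at MJ 24 h 6, 11 and 12 (0.23, 0.40 and 0.44 CPM). Replicate 2 of MJ 3 h, with 2 counts, set the spread of its group and the lower end of the 21.0-fold range. The next lowest CS library was at 0.23 CPM. The order by mean was ETH 3 h (1.19 ± 0.40 CPM, SD, n = 3), ETH 24 h (0.834 ± 0.16), 0 h (0.401 ± 0.072), MJ 24 h (0.356 ± 0.11) and MJ 3 h (0.314 ± 0.21), again with no neighbours that differed in edgeR's test (adjusted p from 0.313 to 0.911). A separation of the 6 ETH libraries above the 9 others was found in 150 of 18008 genes (0.833%). GO missed it, since replicate 1 of MJ 3 h (16 CPM) exceeded replicate 2 of ETH 3 h (15.6 CPM).

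TS, the enzyme of the tabersonine step, was highest at ETH 3 h, and its ETH 24 h values lay among those of the other groups. In the controls it measured 813, 1268 and 392 CPM, a spread of more than 3-fold. At ETH 3 h it measured 1842, 1946 and 1742 CPM, all above the other 12 libraries. The share of genes with such a separation was not counted. Against the controls alone, 17.8% of genes had a gap in this direction. At ETH 24 h the values were 1142, 993 and 1065 CPM, within the range of the controls. They were 1138, 1358 and 551 CPM at MJ 3 h and 642, 863 and 1032 CPM at MJ 24 h. By mean the order was ETH 3 h (1843 ± 102 CPM, SD, n = 3), ETH 24 h (1067 ± 74.4), MJ 3 h (1016 ± 417), MJ 24 h (845 ± 196) and 0 h (825 ± 438), and no neighbours differed in edgeR's test (adjusted p from 0.247 to 0.974).

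**Figure D1:**
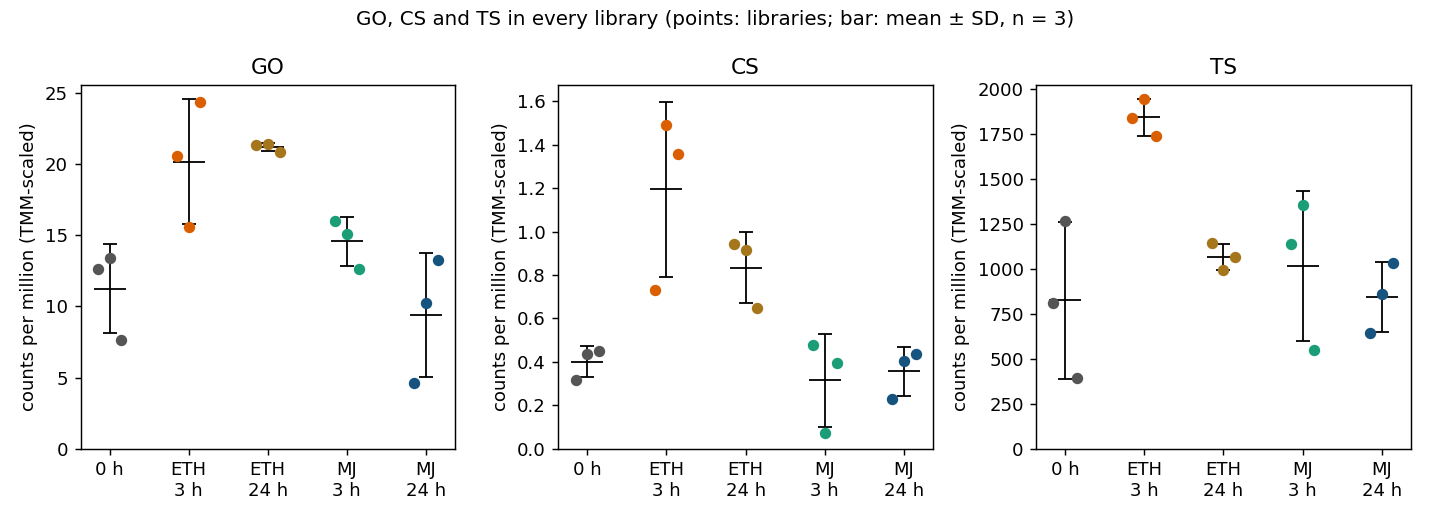
Levels of GO, CS and TS (CPM, linear axes from 0) in each library, by group, with the mean and SD of 3 libraries. All ETH points of CS lie above the 9 other libraries, as in 0.833% of genes. The 3 ETH 3 h points of TS (1742 to 1946 CPM) lie above the other 12, a separation whose share over all genes was not counted.

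Whether the members differed from untreated leaves 3 h after ETH was asked first. CS was 2.95-fold higher (log2 1.56 ± 0.53, SE), TS 2.24-fold (1.16 ± 0.39) and GO 1.80-fold (0.84 ± 0.32), and in all 3 members the groups did not overlap. A gap of this kind and direction was seen in 17.8% of the genes tested. None of the members was called by edgeR, where called means an adjusted p under 0.05 over 18008 genes and a fold above 1.5 (adjusted p 0.0649 for CS, 0.0617 for TS and 0.0909 for GO). The unadjusted p was under 0.05 in 3 of 3 members, against 16.7% of genes with such a p and a higher level, and 4.76% of genes were called higher. DESeq2 called 3 of 3 members (adjusted p 0.0196, 0.0159 and 0.0490 for CS, TS and GO), as did limma voom with quality weights (0.000813, 0.00807 and 0.0307), so the calls at ETH 3 h depended on the tool. Over all genes limma voom called 3975 in either direction here, against 2144 in edgeR. Without replicate 2 of the controls edgeR called TS (log2 1.60, adjusted p 0.0209), and without both libraries high in young-tissue markers it called CS (log2 1.79, adjusted p 0.0336).

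At 24 h after ETH, GO and CS stood apart from the controls and TS did not. GO was 1.89-fold above the controls (log2 0.92 ± 0.32, SE) and CS 2.07-fold (1.05 ± 0.53), both without overlap (19% of genes had such a gap upward). TS was at 1.29-fold (0.37 ± 0.39) and overlapped the controls. None was called by edgeR (adjusted p 0.155, 0.313 and 0.641 for GO, CS and TS), against 1.33% of genes called higher. The unadjusted p was under 0.05 for 1 member, GO, against 9.16% of genes with such a p and a higher level. With DESeq2 0 members were called, and with limma voom GO and CS (adjusted p 0.00672 and 0.00979). Over all genes limma voom called 2765 in either direction here, against 393 in edgeR.

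After MJ all members overlapped the controls. At MJ 3 h the log2 differences were 0.38 (95% interval -0.32 to 1.07) for GO, -0.35 (-1.55 to 0.85) for CS and 0.30 (-0.54 to 1.14) for TS. At MJ 24 h they were -0.26 (-0.95 to 0.44), -0.17 (-1.35 to 1.02) and 0.04 (-0.80 to 0.87). The groups overlapped in every case and edgeR, DESeq2 and limma voom each called 0 of 3 members at either time, with 0 of 3 at an unadjusted p under 0.05 (40.3% of all genes had one at MJ 3 h and 12.1% at MJ 24 h). Of all genes, 9.55% were called higher and 11.3% lower at MJ 3 h, and 5 genes (0.0278%) were called at MJ 24 h. The intervals of CS do not exclude a 2-fold lower level at either time, nor a 2-fold higher level at MJ 24 h. Those of GO and TS do not exclude a 2-fold higher level at MJ 3 h. For CS at MJ 3 h the sign rested on replicate 2, without which the log2 difference was 0.12 (adjusted p 0.865).

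**Figure D2:**
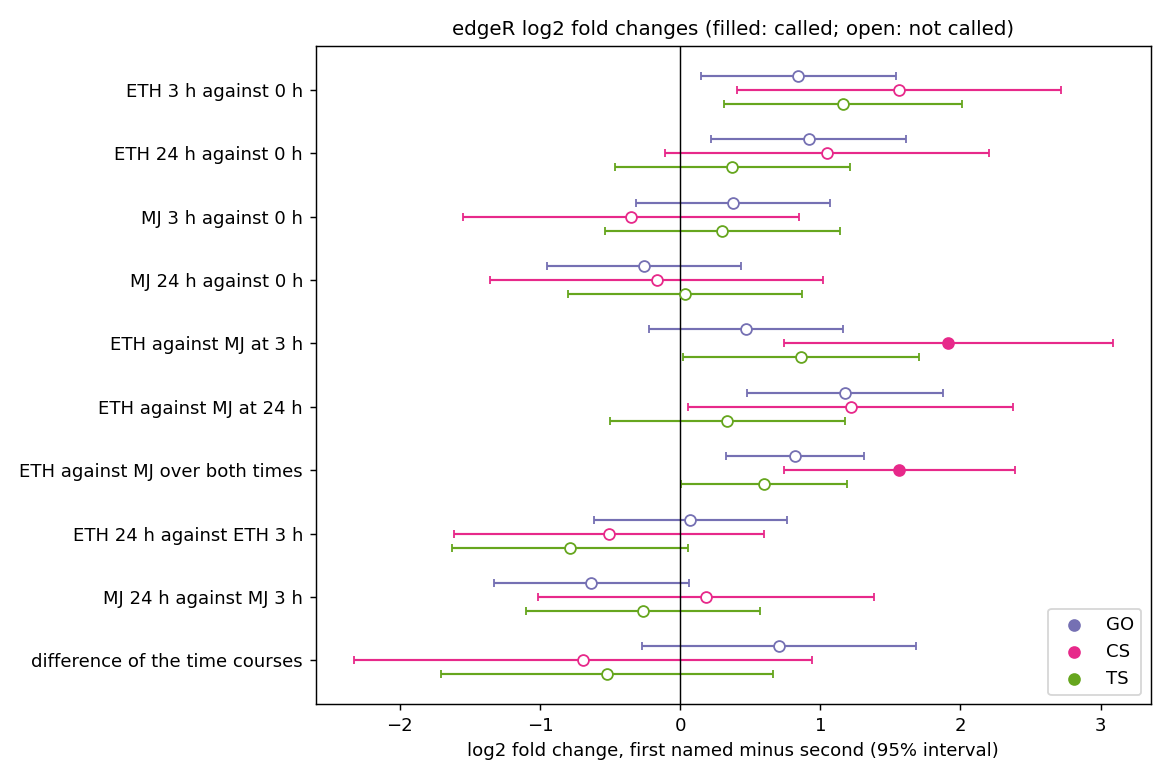
Log2 fold changes of GO, CS and TS in 10 comparisons (horizontal axis, first named minus second), with 95% intervals from edgeR. The filled points are the calls, CS for ETH against MJ at 3 h (1.91) and over both times (1.56).

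The hormones were then compared with each other at the same time after spraying and at the same dose, 100 µM. Whether handling was otherwise alike was not tested. At 3 h CS was 3.76-fold higher under ETH than under MJ (log2 1.91 ± 0.54, SE, adjusted p 0.0498), without overlap, and it was the only member called by edgeR there. In this comparison 3.33% of genes were called higher and 9.85% were higher without overlap. In either direction edgeR called 1241 genes and DESeq2 1837. DESeq2 (adjusted p 0.00567) and limma voom (0.0416) also called CS. The call was at the edge of the threshold: it was lost without ETH 3 h replicate 2 (adjusted p 0.143) or 3 (0.135) and without MJ 3 h replicate 2 (0.0638) or 3 (0.104). It was also lost with library totals (0.0504), upper-quartile scaling (0.0501), no filter on low counts (0.0604) and only the groups compared (0.301), and with a term for replicate number. Over 15 alternatives the adjusted p ran from 0.00567 to 0.301. Without both libraries high in young-tissue markers the log2 difference was 2.60 (adjusted p 0.0300). TS was 1.81-fold higher (0.86 ± 0.39, adjusted p 0.219), without overlap, and GO 1.38-fold (0.47 ± 0.32, adjusted p 0.447), with overlap. The unadjusted p was under 0.05 for CS and TS, and 10.9% of genes had such a p and a higher level.

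At 24 h GO and CS were higher under ETH than under MJ without overlap, which held for 15% of genes, while 0.6% were called higher. The size was 2.26-fold for GO (log2 1.17 ± 0.32, SE) and 2.32-fold for CS (1.22 ± 0.53). TS stood at 1.26-fold (0.34 ± 0.39) and overlapped. edgeR called none (adjusted p 0.107, 0.312 and 0.768), with an unadjusted p under 0.05 for 2 members, GO and CS (6.9% of genes had such a p and a higher level). GO was called by DESeq2 (adjusted p 0.0133) and by limma voom (0.00491). Over all genes limma voom called 1654 in either direction, against 187 in edgeR.

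Over both times, CS was 2.96-fold higher under ETH (log2 1.56 ± 0.38, SE, adjusted p 0.0301) and all 6 ETH libraries exceeded all 6 MJ libraries, as in 1.11% of genes, with 2.18% called higher. DESeq2 (adjusted p 0.00108) and limma voom (0.00954, with 1372 genes called in either direction against 808 in edgeR) made the same call. In edgeR it was lost without any of 8 libraries left out in turn: ETH 3 h replicates 2 (adjusted p 0.0666) and 3 (0.0647), ETH 24 h replicates 1 (0.0723), 2 (0.0751) and 3 (0.0555), MJ 3 h replicate 3 (0.0526), and MJ 24 h replicates 1 (0.0819) and 2 (0.0658). It was also lost with only the groups compared (0.0571) and with a term for replicate number. It held without both libraries high in young-tissue markers (log2 1.90, adjusted p 0.0166), and over 21 alternatives the log2 difference stayed between 1.31 and 1.90 with adjusted p from 0.00108 to 0.0819. GO was 1.77-fold higher (0.82 ± 0.23, adjusted p 0.0520). It passed in 5 of 22 alternatives, among them DESeq2 (0.00717), limma voom (0.0152), edgeR with library totals, and edgeR without MJ 24 h replicate 3 (0.0235). TS was 1.51-fold higher (0.60 ± 0.27, adjusted p 0.233). The unadjusted p was under 0.05 for all 3 members, as in 10% of genes in this direction.

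Between 3 h and 24 h of ETH, TS was 0.579 times its earlier level (log2 -0.79 ± 0.39, SE), with all ETH 24 h libraries below all ETH 3 h libraries, as in 16.1% of genes, but it was not called (adjusted p 0.247), while 1.84% of genes were called lower. GO differed by 0.07 ± 0.32 (adjusted p 0.918) and CS by -0.51 ± 0.51 (adjusted p 0.591) on the log2 scale, both with overlap. Between 3 h and 24 h of MJ the log2 differences were -0.63 ± 0.32 for GO, 0.19 ± 0.55 for CS and -0.27 ± 0.38 for TS, all with overlap and with adjusted p from 0.172 to 0.835 (9% of genes were called higher and 7.39% lower). Whether the change from 3 h to 24 h differed between the hormones was tested directly, as the ETH change minus the MJ change. It was 0.71 ± 0.45 for GO, -0.70 ± 0.75 for CS and -0.52 ± 0.54 for TS (adjusted p 0.483, 0.723 and 0.709), and 3.3% of genes were called. Calls by DESeq2 and limma voom numbered 0 in these 3 comparisons, and no member reached an unadjusted p under 0.05, against 22.9%, 36.9% and 16.9% of all genes for the ETH times, the MJ times and their difference. In a joint edgeR test of the 4 treated groups against 0 h, GO (adjusted p 0.0407) and CS (0.0362) passed and TS did not (0.110), where 32.2% of genes passed.

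Ratios of the members within a library do not depend on how libraries were scaled, and show whether the members kept their proportions. On the log2 scale of counts plus 0.5, the CS/TS ratio was -11.2, -11.5 and -9.70 at 0 h, -11.3, -10.3 and -10.3 at ETH 3 h, -10.2, -10.1 and -10.6 at ETH 24 h, -11.2, -13.9 and -10.4 at MJ 3 h and -11.4, -11.0 and -11.1 at MJ 24 h. The 0 h libraries spanned the whole range of the ETH libraries. The mean ratio was 1.02 log2 units higher under ETH than under MJ (exact two-sided permutation test within times, p = 0.045 over 400 arrangements, adjusted p = 0.27 over 6 ratio tests), which does not pass the adjustment. Without MJ 3 h replicate 2 the difference was 0.50.

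The GO/TS ratio of ETH 24 h, -5.74, -5.54 and -5.67, was above that of ETH 3 h, -6.48, -6.96 and -6.16, without overlap, and that of MJ 24 h, -7.10, -6.39 and -6.28, overlapped that of MJ 3 h, -6.15, -6.49 and -5.44. Averaged over the times, the difference between hormones was 0.22 (exact permutation p = 0.535), and averaged over hormones, the difference between 24 h and 3 h was 0.16 (exact permutation p = 0.645). The GO/CS ratio was lowest at ETH 3 h (4.10 ± 0.71, SD, n = 3) and highest at MJ 3 h (5.79 ± 1.4), a difference between hormones of -0.80 over both times (exact permutation p = 0.16, adjusted p = 0.48). The remaining CS/TS and GO/CS differences between 24 h and 3 h were 0.49 (exact permutation p = 0.475) and -0.33 (exact permutation p = 0.665). The smallest p this design allows is 0.005.

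**Figure D3:**
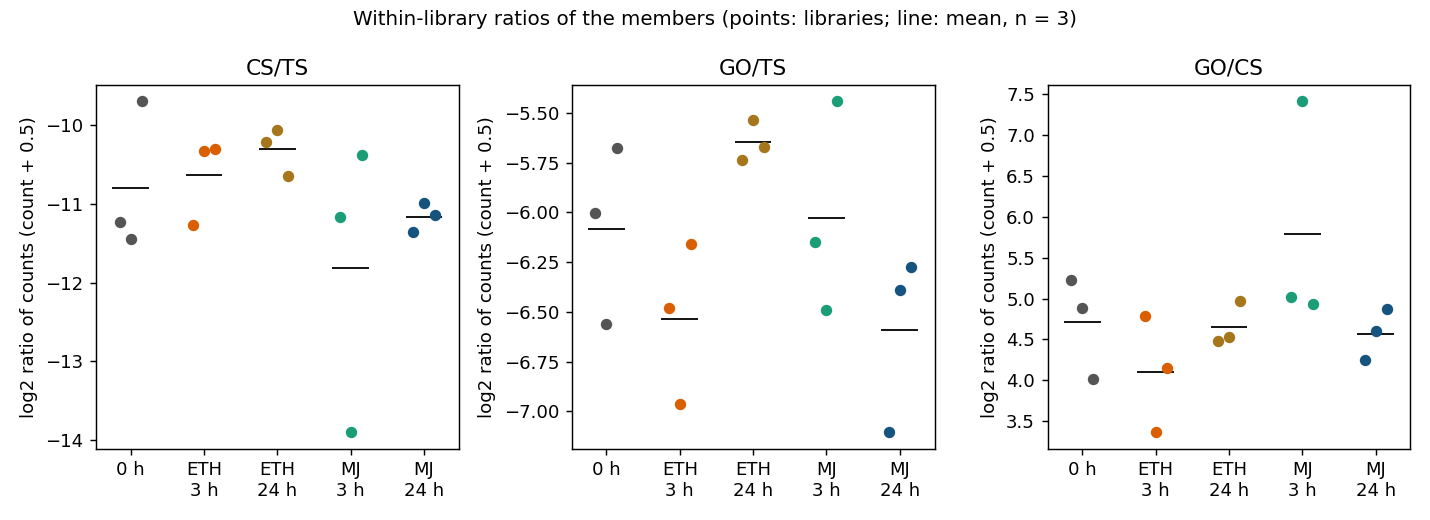
Log2 ratios of counts within each library (vertical axes do not start at 0), by group, with the mean of 3 libraries as a line. The lowest CS/TS and highest GO/CS points, -13.9 and 7.41, are the same library, MJ 3 h replicate 2, in which CS had 2 counts.

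Across the 15 libraries, log2 levels of GO and TS had a Pearson r of 0.69, those of GO and CS 0.56 and those of CS and TS 0.42. These values describe 15 libraries that share treatments, and genes in a library share its scaling. Among 18007 other genes TS ranked 293 by likeness to GO, and CS ranked 1044. With group means removed r was 0.63 for GO and TS, 0.16 for GO and CS, and -0.20 for CS and TS, so the value of GO and TS was similar with and without the group means. The control with the lowest GO (replicate 3) was the one with the lowest TS. The same held for replicate 3 of MJ 3 h and replicate 1 of MJ 24 h, but in neither ETH group. At ETH 3 h the order was reversed: replicate 2 had the lowest GO and the highest TS, and replicate 3 the highest GO and the lowest TS. At ETH 24 h replicate 3 had the lowest GO and replicate 2 the lowest TS. In the study's own expression table the CS values stand in another replicate order within groups than in the deposited counts, which leaves the comparisons over all libraries of a group unchanged. It bears on the correlations and ratios of CS and on every CS value given for a named library or without one, since those depend on which library holds which count.

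**Figure D4:**
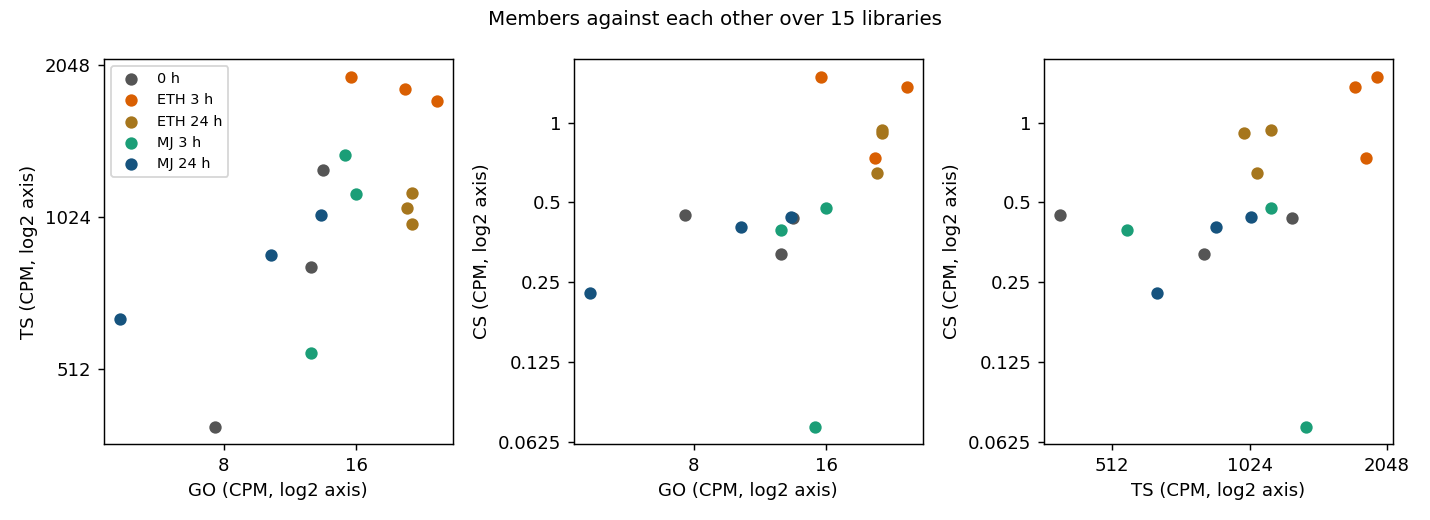
Members plotted against each other over the 15 libraries (CPM on log2 axes, colours for groups). GO and TS show the highest correlation (r = 0.69), and the low CS point at 0.071 CPM is MJ 3 h replicate 2.

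The genes whose levels were most like each member were listed by Pearson r of log2 CPM over 15 libraries. For GO these were CRO_006458 (r = 0.90), CRO_031345 (0.88) and CRO_026309 (0.87), and among genes with a name in the study's tables NAC6 (0.86), a NAC factor, ERF15 (0.82), an ethylene response factor, and EIN2 (CRO_006809, 0.80), a transducer of the ethylene signal. For CS they were CRO_022392 (0.90), CRO_016251 (0.87) and a bZIP factor (CRO_023255, 0.86), followed among named genes by AP3 (0.80), a MADS-box factor, and EXO70E1 (0.77), a subunit of the exocyst in Arabidopsis. For TS they were CRO_015723 (0.93), CRO_030919 (0.93) and ERF13 (0.91), an ethylene response factor, followed among named genes by a bHLH factor (CRO_017976, 0.87) and AGL38 (0.86), another MADS-box factor. The study drew its catharanthine network from the same libraries and kept factors correlated with GO, CS, TS and PRX1. Names taken from its tables are thus not independent of these likenesses. Within groups r was 0.92 for ERF13 and TS. Among the named matches it ran from 0.28 (AP3 and CS) to 0.94 (AGL38 and TS). ERF13 was at 103 ± 45.1 CPM at 0 h, 344 ± 49.4 at ETH 3 h, 120 ± 4.0 at ETH 24 h, 121 ± 44.6 at MJ 3 h and 96.9 ± 8.7 at MJ 24 h (SD, n = 3). Its highest mean, like that of TS, was at ETH 3 h. ERF13 was listed for its likeness to TS in these libraries, so the shared peak is not separate evidence.

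The other MIA genes that the study's tables pair with an identifier lay on both sides of 0 after ETH. They are PRX1, the peroxidase that couples catharanthine and vindoline; T16H1/2, T16OMT, T3O, T3R, NMT and D4H, which turn tabersonine into vindoline precursors; HYS, a heteroyohimbine synthase on a competing branch; G8O, an early iridoid oxidase; and BIS2, a bHLH regulator of iridoid genes. At ETH 3 h 0 of these 10 genes were called by edgeR or DESeq2 (limma voom 2, with 0 at an unadjusted p under 0.05 in edgeR), and their log2 differences ran from -0.72 for NMT to 1.29 for HYS with a median of -0.20, beside 1.16 for the members and 0.05 for all genes tested. At ETH 24 h 0 of 10 were again called by edgeR and DESeq2 (limma voom 2, unadjusted 0), with a median of 0.02 beside 0.92 for the members and -0.01 for all genes.

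PRX1 had an r of 0.68 to GO, 0.65 to TS and 0.19 to CS. It stood at 311 ± 111 CPM at 0 h, 500 ± 143 at ETH 3 h, 489 ± 37.2 at ETH 24 h, 485 ± 209 at MJ 3 h and 346 ± 91.9 at MJ 24 h (SD, n = 3). Its ETH 24 h libraries lay above the controls without overlap, as in 19% of genes, but edgeR (log2 0.65 ± 0.35, SE, adjusted p 0.345) and DESeq2 (0.284) did not call it. It was called by limma voom at ETH 24 h (adjusted p 0.0181) and at ETH 3 h (0.0136). D4H, a late vindoline enzyme, had r of -0.56 to CS.

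At MJ 3 h the pathway median was 0.69, beside 0.30 for the members, and HYS was called higher by edgeR, DESeq2 and limma voom (log2 3.38 ± 0.79 in edgeR, SE). In edgeR 9.55% of all genes were called higher there, so that 1 of 10 is near the background. HYS measured 4.17, 2.61 and 2.2 CPM in the controls and 62.7, 6.08 and 25.2 CPM at MJ 3 h, with its highest value in the library that was also highest in young-tissue markers. HYS stayed called without both such libraries. Without them D4H was called lower at ETH 3 h against 0 h and against MJ 3 h (7.14% and 3.57% of all genes in the main fit). Between 3 h and 24 h of MJ, HYS (log2 -4.15) and BIS2 (-2.12) fell in edgeR, where 7.39% of all genes were called lower, and without those libraries HYS alone was called. DESeq2 called 5 of 10 genes lower there (T16OMT, T3R and G8O as well), and limma voom called HYS and T16OMT. At MJ 24 h 0 of 10 were called by edgeR, DESeq2 or limma voom (unadjusted 0), with a median of -0.69 beside -0.17 for the members.

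**Figure D5:**
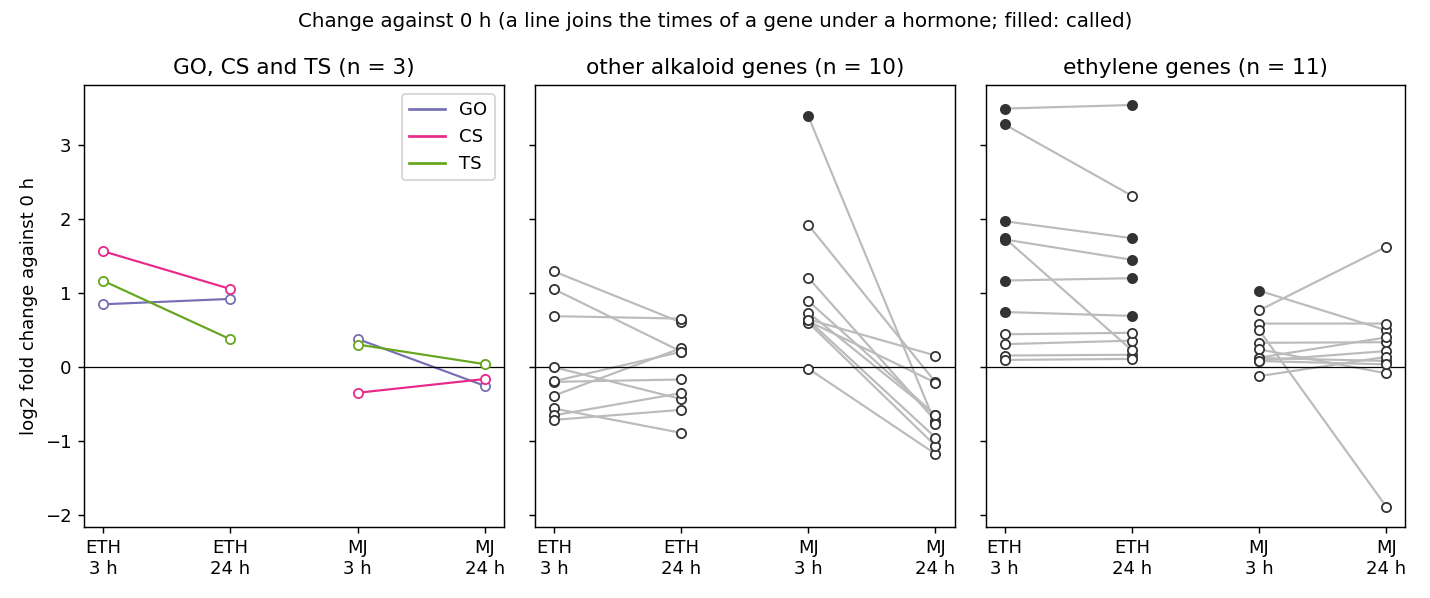
Log2 fold change against 0 h (vertical axis) for the members, 10 other alkaloid genes and 11 ethylene genes, where lines join the times of a gene under a hormone and filled points are calls by edgeR. The members are open at every point, with their highest medians under ETH (1.16 at 3 h and 0.92 at 24 h), and 7 ethylene genes are called at ETH 3 h.

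Ethylene signalling genes gave the measure of the response to ETH in these libraries. The study chose this list on the same libraries, so its direction is not independent evidence. Of 12 genes, 11 were tested, since EIL1, a transcription factor of the EIN3 family, had 0 to 7 counts per library. At ETH 3 h edgeR called 7 of 11 higher (4.76% of all genes), at ETH 24 h 5 (1.33%), at MJ 3 h 1 (9.55%, so that 1 of 11 is near the background) and at MJ 24 h 0 (0.0167%). At MJ 24 h the unadjusted p in edgeR was under 0.05 for 6 of 11, against 12.1% of all genes, and DESeq2 and limma voom called 1 each. EBF2, the F-box protein that targets EIN3 for breakdown in Arabidopsis, had the largest log2 difference at ETH 3 h (3.49 ± 0.35, SE), rising from 362 ± 83.8 to 4056 ± 111 CPM (SD, n = 3). ERF15 was next (3.27 ± 0.75). The smallest log2 difference was that of EIN2 (CRO_030101, 0.09). The median of the 11 was 1.16 at ETH 3 h and 0.69 at ETH 24 h, beside 1.16 and 0.92 for the members. In the comparison of ETH with MJ, 6 of 11 were called higher at 3 h (3.33% of all genes) and 5 at 24 h (0.6%). Without both libraries high in young-tissue markers 4 were called in this comparison at 3 h and 7 at ETH 3 h against 0 h.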

How the data were processed

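Leaf RNA was sequenced in 15 libraries, grouped by the labels. The authors aligned reads with HISAT2 (version 2.0.4 per the submitters' processing notes). They deposited raw counts per gene from HTSeq, and its strand setting was not given in the sources used here. These are whole numbers, and 0 columns belonged to unknown samples. Genes passing filterByExpr (18008 of 33829) were fitted in edgeR 4.0.16 (R 4.3.3) with TMM factors (0.888 to 1.14), 5 group means over all libraries and no replicate term, and p-values were adjusted by Benjamini-Hochberg. The script was tested on simulated data. Correlations used log2 CPM with a prior count of 2. Ratios were tested by exact permutation in Python 3.11.15.

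The members and gene lists were chosen with earlier results of these data known. Named genes were the members, the MIA and ethylene genes with identifiers, and the 3 genes most like each member. Alternatives were DESeq2 1.42.0, limma 3.58.1 voom with quality weights, library totals, upper-quartile scaling, no filter, at least 10 counts in every library, only the groups compared, no fold threshold, a term for replicate number, a count plus 1 in ratios, each library left out, and, chosen after seeing the data, both 3 h libraries numbered 1 left out at once.

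Replicate numbers were shared by the groups, and were not taken as pairs: no label ties them, and not every same-numbered pair deviated together (15 of 30 had r over 0.1, against 23 of 60 pairs of different numbers). Depth limits the CS row, with 2 to 38 counts per library. A fold change carries the error of the controls, which all comparisons with 0 h share. The labels' extraction text names another organism's tissue and was set aside. Columns of fold changes or p-values by the authors were not used.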

Additional observations from a re-analysis of the deposited data

How the results depend on the processing

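Of 495 alternative values of the members' log2 fold changes, 446 kept direction and side of the threshold, 18 gained a call, 19 lost one (all CS, ETH against MJ) and 12 changed sign, in comparisons where the member was not called. The number of members called, 0 at ETH 3 h against 0 h, was 3 with DESeq2, 3 with limma voom, 0 to 1 with a library left out and 1 without both first 3 h replicates. At ETH 24 h against 0 h it was 2 with limma voom. For ETH against MJ at 3 h, 1 became 0 with library totals, upper-quartile scaling, no filter, at least 10 counts in every library (CS was then not tested) and only the groups compared, and 0 to 1 with a library left out. At 24 h, 0 became 1 with DESeq2 and with limma voom. Over both times, 1 became 2 with DESeq2, limma voom and library totals, 0 with only the groups compared, and 0 to 2 with a library left out. For ETH 24 h against ETH 3 h, 0 became 1 (TS, log2 -0.79, adjusted p 0.0449) with only the groups compared. Apart from the 10-count filter, the cause was not tested.

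The replicate block moved the members called from 1 to 0 for ETH against MJ at 3 h (CS log2 1.89, adjusted p 0.0807) and over both times (log2 1.57, adjusted p 0.0518) and changed no other member's call. Deviations of same-numbered libraries had a median r of 0.10 over 30 pairs (-0.58 to 0.74), beside -0.068 over 60 pairs of different numbers, and 7 of 15 libraries correlated best with their own number. Some same-numbered libraries thus deviated together and others did not, and no label says that a number marks a shared batch. In the ratio tests the block gave exact p from 0.094 to 0.69 over 64 sign flips (smallest possible 0.031).

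The changes of sign were near 0. At MJ 3 h against 0 h, CS ran from -0.80 without both first 3 h replicates to 0.12 without MJ 3 h replicate 2, and TS was -0.014 with limma voom and -0.044 to 0.74 with a library left out. At MJ 24 h against 0 h, GO ran from -0.59 to 0.061, CS from -0.34 to 0.065 and TS from -0.30 to 0.48 with a library left out, CS was 0.043 with limma voom and TS -0.062 with library totals. GO at 24 h against 3 h of ETH ran from -0.090 to 0.23 with a library left out. At 24 h against 3 h of MJ, CS ran from -0.29 to 0.64, with the lowest value without MJ 3 h replicate 2, and TS was 0.015 with limma voom. Without a library, the 24 h against 3 h ratio differences ran from -0.031 to 0.85 for CS/TS and from -0.54 to 0.077 for GO/CS, with the change of sign without MJ 3 h replicate 2. No ratio test passed the adjustment in any alternative (lowest adjusted p 0.06, CS/TS).

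The background moved as well, and limma voom gave the highest counts at ETH 3 h, ETH 24 h and MJ 24 h against 0 h. Genes called ran, with the main count in the middle, 1008, 2144 and 3975 for ETH 3 h, 83, 393 and 2765 for ETH 24 h, 2025, 3750 and 5048 for MJ 3 h and 0, 5 and 912 for MJ 24 h (each against 0 h), and 175, 1241 and 1837 for ETH against MJ at 3 h, 20, 187 and 1654 at 24 h and 533, 808 and 1372 over both times. They were 20, 652 and 2218 for the ETH times, 1143, 2950 and 3973 for the MJ times and 258, 595 and 1324 for the difference of the time courses.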
